A study of Homo sapiens with 20 samples.

Results

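The 9 genes described here are the cytoplasmic actin and tubulin genes ACTB, ACTG1, TUBA1A, TUBA1B, TUBA1C, TUBB, TUBB2A, TUBB4B and TUBB6. They were found in a gene count table of 19962 genes by their Ensembl identifiers, and all 9 were present. The actins are ENSG00000075624 (ACTB, chr7:5527148-5530601, minus strand) and ENSG00000184009 (ACTG1, chr17:81509971-81512799, minus strand). The alpha-tubulins lie on chromosome 12 and are ENSG00000167552 (TUBA1A, chr12:49184795-49189080, minus strand), ENSG00000123416 (TUBA1B, chr12:49127782-49131395, minus strand) and ENSG00000167553 (TUBA1C, chr12:49227926-49274600, plus strand). The beta-tubulins are ENSG00000196230 (TUBB), ENSG00000137267 (TUBB2A), ENSG00000188229 (TUBB4B) and ENSG00000176014 (TUBB6). Spans are those of RefSeq on GRCh38.p14, and which bases are exon, intron or untranslated region was not annotated here. Actin polymerises into filaments that shape the cell cortex, and alpha- and beta-tubulin pair into the dimers from which microtubules are built. ACTB and ACTG1 encode the beta and gamma cytoplasmic actins, TUBA1A, TUBA1B and TUBA1C encode alpha-tubulins that are nearly the same protein, and the other members encode beta-tubulins. Such gene families are known for very similar coding sequences and divergent 3' untranslated regions. The amount of tubulin mRNA is known to be held down by free tubulin dimers through decay of tubulin mRNAs on ribosomes, and the ACTB mRNA is the classical cargo of IGF2BP1, a close relative of IGF2BP3.

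The libraries came from PAR-CLIP of IGF2BP3, an RNA-binding protein of the IGF2BP family, in HCT116, a human colorectal carcinoma line. The cells had the genotype Tet-OsTIR1-PURO, with conditional expression of Tet-OsTIR1, in every condition, controls included. In PAR-CLIP the uridine analogue 4-thiouridine enters RNA and ultraviolet light crosslinks it to bound protein, which shows in the sequence as T-to-C conversions at crosslinked sites. Cells of all groups had 15 h of 4-thiouridine at 100 µM before 365 nm light at a dose of 0.15 J/cm2. The 5 conditions were PBS for 2 h, 250 µM arsenite for 2 h, DMSO for 4 h, and 5 µg/mL tunicamycin (TM) for 1 h or for 4 h. The labels give arsenite in the sample names and arsenate in the protocol. The protocol gives only 4 h of tunicamycin while sample names give 1 h and 4 h, and the sample names were followed. Tunicamycin blocks N-linked glycosylation and causes endoplasmic reticulum stress, and arsenite is an oxidative stressor. For each condition there were 3 anti-IGF2BP3 libraries and 1 IgG control library, and nothing in the labels says whether replicates came from separate cultures, so p-values measure the spread between these libraries. The TM 1 h cells were set against a 4 h vehicle. Library names put all PBS and arsenite libraries in a set of their own. They put anti-IGF2BP3 replicates 1 and 2 of DMSO and TM in another, and replicate 3 of these in a further set. The IgG libraries of DMSO and TM are all in the set of replicate 3. No total RNA was measured here, so more mRNA in the cell and more mRNA recovered per molecule present cannot be told apart, and fewer cells and less RNA per cell cannot either.

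Total gene counts were 130478 to 1568406 in the 15 anti-IGF2BP3 libraries and 5981 to 17503 in the 5 IgG libraries. The authors' lists of clusters, stretches of crosslinked reads called in each library, held 3579 to 63287 clusters per anti-IGF2BP3 library. The fewest clusters and counts were in PBS replicate 2. Cluster reads fell on 7 of 8 epithelial marker genes, among them EPCAM with 301 reads and KRT8 with 424 reads, and on 0 of 9 leukocyte, fibroblast and endothelial markers. The cluster list attached to the IgG sample labelled arsenite held 32 reads on TUBA1B, while that sample's count was 24. Which of the IgG libraries of the PBS and arsenite set is which is therefore in doubt, and their values are given as the count table labels them.

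ACTB carries, just after its stop codon, the zipcode element known to bind IGF2BP1. It is shown because its letters were under a cluster in 15 of 15 anti-IGF2BP3 libraries. The stretch lies at chr7:5527722-5527746 (hg38, minus strand), 574 bases from the 3' end of the gene span, and capitals mark the CGGAC and ACA parts known from the element. In the cluster sequences the 6 bases before it were TCTAGG, which hold the TAG stop codon.
ACTB zipcode: CGGACtatgacttagttgcgttACA

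The cluster over it held 14, 5 and 20 reads in the PBS libraries and 61, 97 and 130 reads in the arsenite libraries, but the clusters also spanned different lengths, from 44 to 397 bases over the 15 libraries, so these reads are not on one scale. CGGAC followed 5 to 25 bases later by ACA was searched on the cluster strand. It was found in 0.288% of the 202032 clusters of 44 to 100 bases and in 0.798% of the 34350 clusters of 101 to 160 bases. Its reverse complement, searched in the same sequences, was in 0.232% and 0.466% of them. The pair was in 15 of the 165 ACTB clusters, 1 in each library, and in 0 of the 172 ACTG1 clusters and 0 of the clusters of the tubulin members. A match is a description of letters and no test of binding.

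The members' 3' ends are where most cluster reads of ACTB, ACTG1, TUBA1B and TUBB4B lay, and the centre of each such stretch is printed to show how the members differ there. Each run of 30 bases is the middle of the interval that was under clusters in the most libraries, in lower case throughout. These were 15 of 15 libraries for the first 4 genes and 5 of 15 for TUBB2A.
ACTB, chr7:5527545-5527574, minus strand: gttggagcgagcatcccccaaagttcacaa
ACTG1, chr17:81510107-81510136, minus strand: cctgtaaatgtattcattcttaatttatgt
TUBA1B, chr12:49127863-49127892, minus strand: agacgttaaagctttctggttagattgttt
TUBB4B, chr9:137243629-137243658, plus strand: gtcccactgtgtgcacttgctgttttccct
TUBB2A, chr6:3153804-3153833, minus strand: gtgaacttctgttgtcctcaagcatggtct

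Upstream of their 3' ends the alpha-tubulin genes share much of their sequence, which limits what counts can say about single alpha-tubulin genes. All 8 cluster regions of TUBA1A shared at least 60.0% of their 20-base words with clusters of another member, and the TUBA1A cluster nearest to the 3' end of the gene span lay 282 bases from it. In TUBA1C, 91.2% of cluster reads lay in regions that shared at least 50% of their words with another member. In TUBA1B that share was 42.9%, and 55.9% of its cluster reads lay in regions that shared none. In 56 cases a library listed a cluster of the same sequence at 2 member loci, and in 40 of them both copies carried the same number of reads. How reads that fit several places were counted was not given in the sources used here, so the counts of TUBA1A and TUBA1C, and part of those of TUBA1B, are uncertain as counts of single genes. ACTB and ACTG1 overlapped less. Between 0% and 33.3% of the words of an ACTB region were in ACTG1 clusters, but 48.0% of the words of its 3'-end region were also in clusters outside the members. For the 3'-end regions of TUBA1B, ACTG1 and TUBB4B that outside share was 20.6%, 35.9% and 33.3%, so these regions are not unique either.

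The members together took 0.757% to 1.00% of all gene counts in the anti-IGF2BP3 libraries. PBS libraries had 0.894% ± 0.0081 and arsenite libraries 0.782% ± 0.026 (SD, n = 3 each). For the tunicamycin set the share was 0.842% ± 0.069 with DMSO, 0.946% ± 0.071 after 1 h and 0.981% ± 0.018 after 4 h (SD, n = 3 each). In the IgG libraries it was 0.754% to 1.08%. Most of it came from the alpha-tubulins, which took 0.659% ± 0.021 in PBS and 0.492% ± 0.017 in arsenite (SD, n = 3). The actins took 0.220% ± 0.011 in PBS and 0.264% ± 0.025 in arsenite, and the beta-tubulins 0.0154% ± 0.0034 and 0.0264% ± 0.0016 (SD, n = 3). So in arsenite the alpha-tubulin share was below PBS in each library, while the actin and beta-tubulin shares were above it. These shares are counts and are not divided by transcript length, so they do not rank the genes by molecules.

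**Figure D1:**
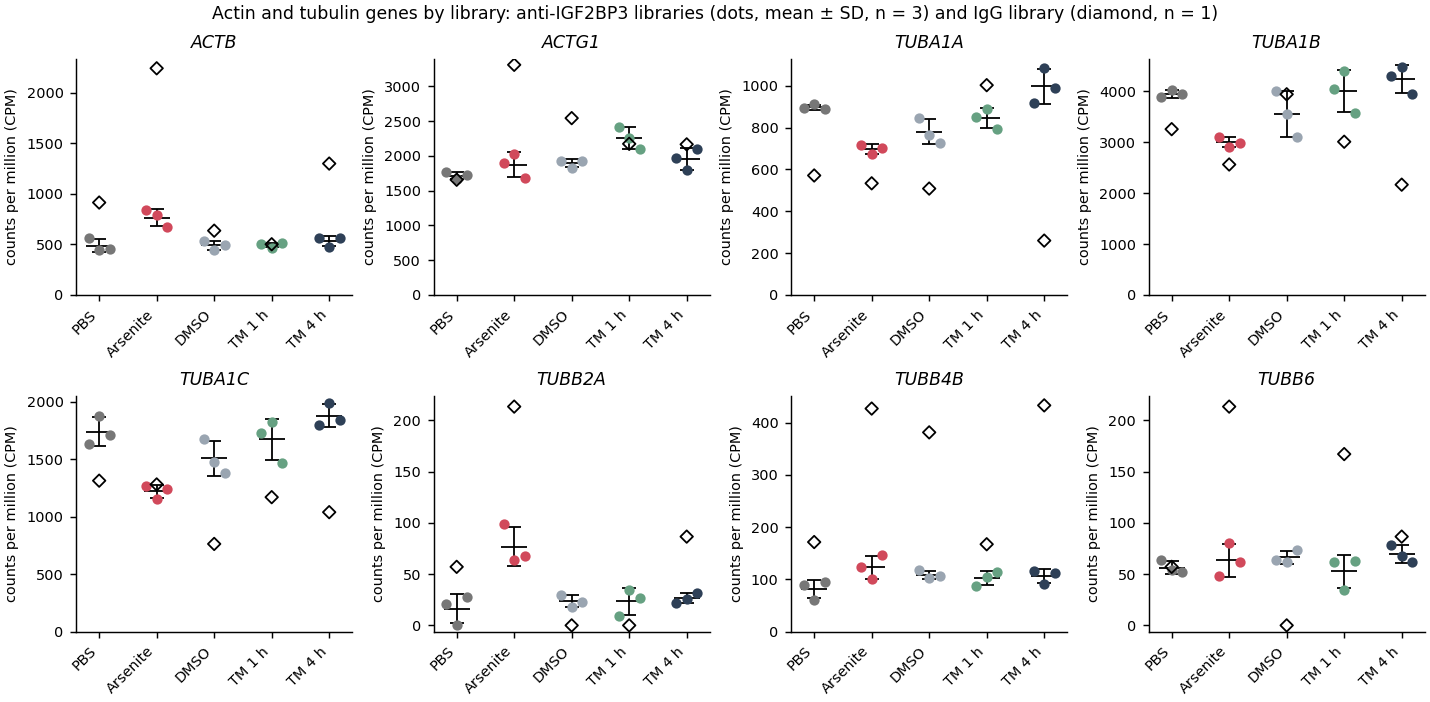
CPM (the gene count scaled by the library total) of 8 members in each library, with dots for the 15 anti-IGF2BP3 libraries, bars for the mean ± SD (n = 3) and an open diamond for the IgG library of the condition. The ACTB dots of arsenite, 673 to 838 CPM, lie above all other conditions, and the dots of the 3 alpha-tubulins are lowest in arsenite. TUBB, at 0 in every library, is not drawn.

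Arsenite against PBS moved the members apart. ACTB, TUBB2A and TUBB4B rose, TUBA1A, TUBA1B and TUBA1C fell, and ACTG1 and TUBB6 did not pass the test. That is 6 of the 8 members tested at an adjusted p under 0.05 (edgeR quasi-likelihood test, Benjamini-Hochberg over 6642 genes), where 34.8% of all genes tested passed (17.6% higher and 17.1% lower). The 8 members had a median log2 change of 0.16 beside a median of -0.0013 over all genes. TUBB2A is counted here although it entered the fit through its arsenite libraries.

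ACTB, the beta-actin gene, stood at 559, 445 and 451 CPM (the gene count scaled by the library total) in PBS and at 838, 786 and 673 CPM in arsenite. All arsenite libraries were above all PBS libraries, and the change was 0.62 on the log2 scale (SE 0.092, 1.53-fold, adjusted p = 8.3e-09 by edgeR). In the IgG libraries ACTB was at 914 CPM (16 counts) in PBS and 2242 CPM (21 counts) in arsenite, so it was higher in the IgG library labelled arsenite. If the labels of these IgG libraries were exchanged, the direction would turn. The part of that background in the ACTB change was not tested. ACTG1, the gamma-actin gene, was at 1765, 1663 and 1718 CPM in PBS and at 1901, 2034 and 1685 CPM in arsenite. The groups overlapped, and the log2 change of 0.13 (SE 0.064) did not pass (edgeR adjusted p = 0.11), though it passed without arsenite replicate 3 (0.22, edgeR adjusted p = 0.0078) and at a mean count of at least 50 (0.17, edgeR adjusted p = 0.033). Within each library, ACTB had 26.3 to 31.7 counts per 100 counts of ACTG1 in PBS and 38.6 to 44.1 in arsenite. This ratio does not depend on library scaling and the groups were separate. An exact permutation test of 3 against 3 libraries cannot go below a two-sided p of 0.1, and it gave 0.1 (0.24 adjusted over 12 ratio tests).

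The alpha-tubulins were lower in arsenite. TUBA1B stood at 3881, 4024 and 3942 CPM in PBS and at 3101, 2913 and 2988 CPM in arsenite. The groups were separate and the change was -0.38 (SE 0.054, edgeR adjusted p = 1.8e-09). TUBA1C fell by 0.47 (SE 0.066, edgeR adjusted p = 1.0e-09), from 1742 ± 124 to 1222 ± 56.8 CPM (SD, n = 3). TUBA1A fell by 0.34 (SE 0.079, edgeR adjusted p = 2.0e-04), from 898 ± 12.2 to 697 ± 23.1 CPM (SD, n = 3). The changes of the 3 genes are not independent readings, given the sequence they share. TUBA1A had 22.6 to 23.0 counts per 100 of TUBA1B in PBS and 23.1 to 23.5 in arsenite, a difference of 0.50 in the mean (exact permutation p = 0.1, 0.24 adjusted over 12). TUBA1C had 44.1 ± 2.33 per 100 of TUBA1B in PBS and 40.7 ± 0.93 in arsenite (SD, n = 3), separate in the other direction (exact permutation p = 0.1, 0.24 adjusted).

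The beta-tubulin TUBB2A had 9, 0 and 11 counts in PBS and 41, 40 and 74 counts in arsenite. Its level was 21.2, 0 and 27.3 CPM against 99.0, 64.2 and 67.4 CPM. Arsenite was higher in each library, and the log2 change was 1.83 (SE 0.33, edgeR adjusted p = 1.6e-06). TUBB2A passed the filter on low counts through its arsenite libraries. Its entry into the test was thus not independent of the change. In the IgG libraries TUBB2A was at 57.1 CPM (1 count) in PBS and 214 CPM (2 counts) in arsenite. TUBB4B, another beta-tubulin, was at 89.6, 61.3 and 94.2 CPM in PBS and at 123, 101 and 146 CPM in arsenite, with a log2 change of 0.55 (SE 0.20, edgeR adjusted p = 0.019). In the IgG libraries TUBB4B was at 171 CPM (3 counts) in PBS and 427 CPM (4 counts) in arsenite. The part of this background in the TUBB2A and TUBB4B changes was not tested. The TUBB4B call ended without PBS replicate 1 (edgeR adjusted p = 0.069), without arsenite replicate 3 (0.25) and in DESeq2 (0.15). TUBB6 was at 63.7, 53.6 and 52.1 CPM in PBS and at 48.3, 80.2 and 61.9 CPM in arsenite, which overlap (log2 change 0.19, SE 0.25, edgeR adjusted p = 0.61).

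TUBB, a major beta-tubulin gene of dividing cells, was listed at 0 in all 20 libraries, and no cluster lay on its span at chr6:30720352-30725422. Over the 15 anti-IGF2BP3 libraries 0 of 10269443 counts allow up to 0.292 CPM at the limit of 3 counts, which covers counting error only. The stretch around it, chr6:28729399-31268881 with 66 RefSeq protein-coding genes in 2.54 Mb, held 0 clusters in these libraries. The same length before it held 1332 clusters and 67 such genes, and the same length after it held 88 clusters and 108 such genes, counted separately. The value of TUBB therefore stands in a stretch with no clusters at all and gives no level for this gene.

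Tunicamycin for 4 h moved the alpha-tubulins the other way. TUBA1A, TUBA1B and TUBA1C rose against DMSO, and the actins and beta-tubulins did not pass the test. That is 3 of 8 members, where 5.11% of 8343 genes passed (2.79% as higher), with a median log2 change of 0.18 over the members and 0.0037 over all genes. TUBA1A was at 847, 767 and 728 CPM in DMSO and at 916, 1087 and 989 CPM at TM 4 h. The groups were separate and the change was 0.36 (SE 0.079, edgeR adjusted p = 0.0015). TUBA1C was at 1673, 1476 and 1378 CPM in DMSO and at 1800.2, 1993 and 1843 CPM at TM 4 h (0.31, SE 0.076, edgeR adjusted p = 0.0046). These groups were separate too, and the call ended without DMSO replicate 3 (edgeR adjusted p = 0.065) or TM 4 h replicate 2 (0.060).

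TUBA1B was at 4003, 3550.0 and 3106 CPM in DMSO and at 4307, 4478 and 3945 CPM at TM 4 h. The groups overlapped, since the highest DMSO library lay above the lowest TM 4 h library. The change was 0.25 (SE 0.074, edgeR adjusted p = 0.032), and the call ended without DMSO replicate 2 (0.12) or 3 (0.30), without TM 4 h replicate 1 (0.088) or 2 (0.20), in DESeq2 (0.20), without the filter on low counts (0.062) and within the set of replicates 1 and 2 (0.087). Among the others, ACTB was at 532, 447 and 499 CPM in DMSO and at 560.0, 473 and 565 CPM at TM 4 h, which overlap (0.11, SE 0.086, edgeR adjusted p = 0.55). ACTG1 was at 1924, 1825 and 1924 CPM and at 1971, 1794 and 2098 CPM (0.035, SE 0.072, edgeR adjusted p = 0.87). TUBB2A, TUBB4B and TUBB6 had log2 changes of 0.32, -0.024 and -0.031.

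At TM 1 h no member passed the test against DMSO, 0 of 8 by edgeR, where 0.551% of genes did. At an unadjusted p under 0.05, 2 members passed in the edgeR fit, ACTG1 (8.1e-04) and TUBA1B (0.016), and DESeq2 also called 0 members. ACTG1 was nearest, at 2417, 2264 and 2098 CPM against 1924, 1825 and 1924 CPM in DMSO. Its 3 TM 1 h libraries were above all DMSO libraries, with a change of 0.26 (SE 0.073, edgeR adjusted p = 0.11). Within the library set of replicates 1 and 2 it passed (0.34, edgeR adjusted p = 0.041). From TM 1 h to TM 4 h, ACTG1 fell by 0.22 (SE 0.073, edgeR adjusted p = 0.034). It was the only 1 of 8 members called in a comparison in which 11.6% of genes passed (5.99% as lower), and the call ended without TM 1 h replicate 1 (0.15) or 2 (0.081), without TM 4 h replicate 2 (0.18), in DESeq2 (0.0504), with library totals (0.054) and at a mean count of at least 50 (0.085). TUBA1A changed by 0.23 between the same libraries (SE 0.082, edgeR adjusted p = 0.051). It passed with library totals (edgeR adjusted p = 0.025) and at a mean count of at least 50 (0.014), where ACTG1 did not. It also passed with robust variance (0.040), with the library set as a covariate (0.048) and without TM 4 h replicate 1 (0.033). The 2 tunicamycin comparisons with DMSO share its 3 libraries.

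**Figure D2:**
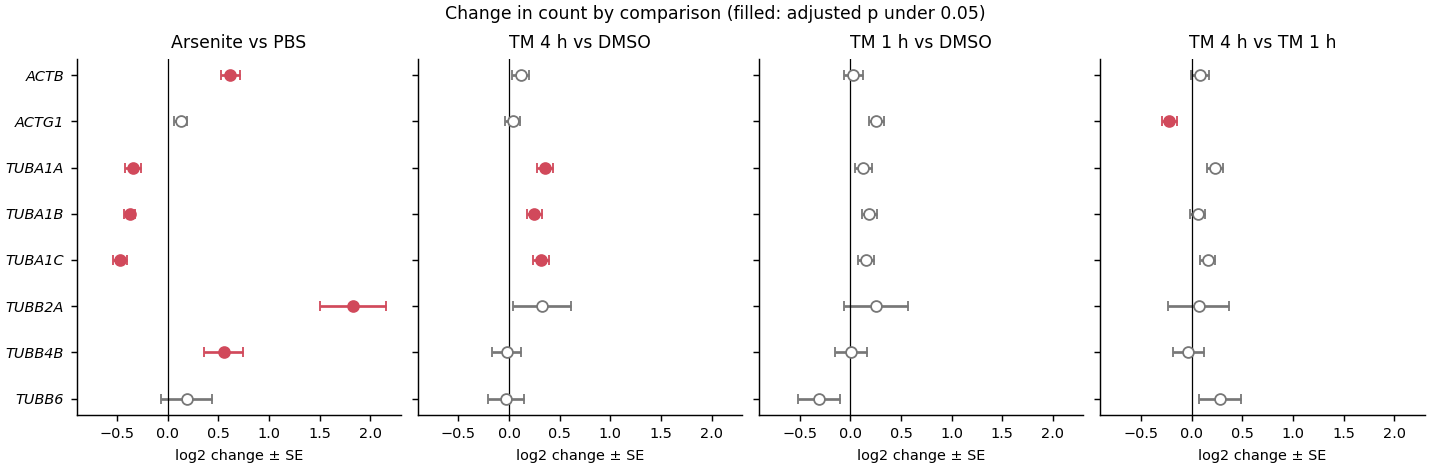
Log2 change in count ± SE of 8 members in 4 comparisons, from the edgeR fit over all genes (filled points have an adjusted p under 0.05). The alpha-tubulins lie between -0.47 and -0.34 for arsenite and between 0.25 and 0.36 for TM 4 h, and TUBB2A at 1.83 is the largest change drawn. TUBB2A entered the arsenite fit through its arsenite libraries.

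The difference between both stresses was tested in 1 fit of the 12 libraries of PBS, arsenite, DMSO and TM 4 h. It passed for 5 of 8 members, where 18.3% of 7796 genes passed (8.57% above 0 and 9.74% below). The arsenite change lay below the TM 4 h change by 0.71 in TUBA1A (SE 0.11, edgeR adjusted p = 1.4e-06), by 0.63 in TUBA1B (SE 0.094, 3.3e-07) and by 0.80 in TUBA1C (SE 0.10, 5.8e-09). It lay above it by 0.51 in ACTB (SE 0.13, 0.0040) and by 1.5 in TUBB2A (SE 0.45, 0.013). TUBB4B, with 0.57, missed the threshold (SE 0.24, edgeR adjusted p = 0.091), and ACTG1 (0.092) and TUBB6 (0.21) did not pass. Arsenite and tunicamycin libraries belong to different sets by their labels. The set and the stress cannot be told apart here, although each change was taken against a control of its own.

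The order of levels across conditions is given within a gene. It crosses library sets, vehicles and treatment times, which cannot be told apart from the conditions in it. For TUBA1B it ran, from the lowest, arsenite (3001 ± 94.9 CPM), DMSO (3553 ± 449), PBS (3949 ± 71.8), TM 1 h (4005 ± 406) and TM 4 h (4243 ± 272; SD, n = 3 each). All arsenite libraries lay below the other anti-IGF2BP3 libraries, though the highest of them (3101) was just below DMSO replicate 3 (3106), and the other 4 conditions overlapped with their neighbours. For ACTB it ran PBS (485 ± 64.3), DMSO (492 ± 42.9), TM 1 h (495 ± 22.9), TM 4 h (533 ± 51.8) and arsenite (766 ± 84.5 CPM), and only arsenite was clear of its neighbour. Likeness was measured over 3332 candidate genes, those with mean counts of 50 or more. The pattern most like ACTB over the 15 libraries was that of ENSG00000143418_20 (Pearson r = 0.92 of log2 CPM, Spearman rho = 0.76). For TUBA1B it was ENSG00000198805_12 (r = 0.85, rho = 0.90). The points share depth and condition, and the likeness is a description.

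The IgG libraries show how much of this could be seen without the antibody. With library totals as the only scaling, ACTB was lower in the anti-IGF2BP3 libraries than in IgG (log2 difference -1.06, SE 0.22, edgeR adjusted p = 2.4e-04). TUBB4B was lower too (-1.56, SE 0.45, 0.044), and no member was called higher. That is 2 of 8 members, where 1.24% of 7022 genes passed (1.13% as lower). The alpha-tubulins were at 0.68 (TUBA1A), 0.35 (TUBA1B) and 0.50 (TUBA1C) above IgG and did not pass (edgeR adjusted p of 0.27, 0.16 and 0.21). TMM scaling raised the median over all genes from 0.13 to 0.71. Under it the 3 alpha-tubulins passed as higher, at 1.25, 0.93 and 1.07, ACTB (-0.47) and TUBB4B (-0.96) did not pass, and ACTG1 turned from -0.27 to 0.34. Without both IgG libraries of the PBS and arsenite set no member passed by edgeR, with 59 genes called in all. IgG libraries held 1 to 5 counts of TUBB4B and 3 to 21 of ACTB each. For DMSO and TM they all belong to the set of replicate 3. Antibody and library set are thus partly mixed in this fit, which had no term for the set.

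In the cluster lists, ACTB, ACTG1, TUBA1A, TUBA1B, TUBA1C and TUBB4B had a cluster in 15 of 15 anti-IGF2BP3 libraries, TUBB6 in 9, TUBB2A in 7 and TUBB in 0. For the 5 actin and alpha-tubulin genes the clusters held 90.5 to 95.1 reads per 100 gene counts, against 74.8 in TUBB4B, 39.7 in TUBB2A and 35.1 in TUBB6. TUBB2A clusters were present in 3 of 3 arsenite libraries, with 28, 12 and 41 reads, and in 0 of 3 PBS libraries. They were also in 4 of the 9 tunicamycin and DMSO libraries. Clusters lay on the strand of the gene except for 3 on TUBB6 with 16 reads. The coordinates below are hg38, and 518 of 518 clusters in RefSeq promoter windows of GRCh38.p14 had the same letters at the same position.

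Cluster reads were densest at the 3' ends. In TUBA1B 52.9% of 35086 cluster reads lay at chr12:49127771-49127988, within 206 bases of the 3' end. In ACTG1 61.6% of 18959 lay at chr17:81509970-81510386, in ACTB 65.95% of 5166 at chr7:5527210-5527895, and in TUBB4B 74.9% of 843 at chr9:137243468-137243705. The ACTB region is the longest of these, with 686 bases from 62 to 747 bases from the 3' end. It holds the zipcode and the stop codon and reaches upstream of both. TUBA1A and TUBA1C differed in this. Their most read regions, with 35.2% and 56.1% of reads, lay upstream, at least 659 and 1812 bases from the 3' end of the gene span. These regions shared 89.7% and 89.6% of their 20-base words with clusters of another member. In TUBA1C even the region nearest to the end of the span lay 1289 bases from it. Distances in the span need not be distances in the mRNA.

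In TUBA1B, ACTG1 and ACTB the share of T positions read as C was lower in the 3'-end region than upstream. It was 6.02% in the 3'-end region of TUBA1B, against 8.61% to 13.2% in its other regions. In ACTG1 it was 6.21%, against 8.39% to 14.8% upstream in regions seen in at least 10 libraries, and in ACTB it was 8.55% against 12.3% to 15.9%. These are sums over libraries and have no test. Clusters with at least 2 conversion positions were listed, so a thinly read region can enter the lists only if it has conversions.

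**Figure D3:**
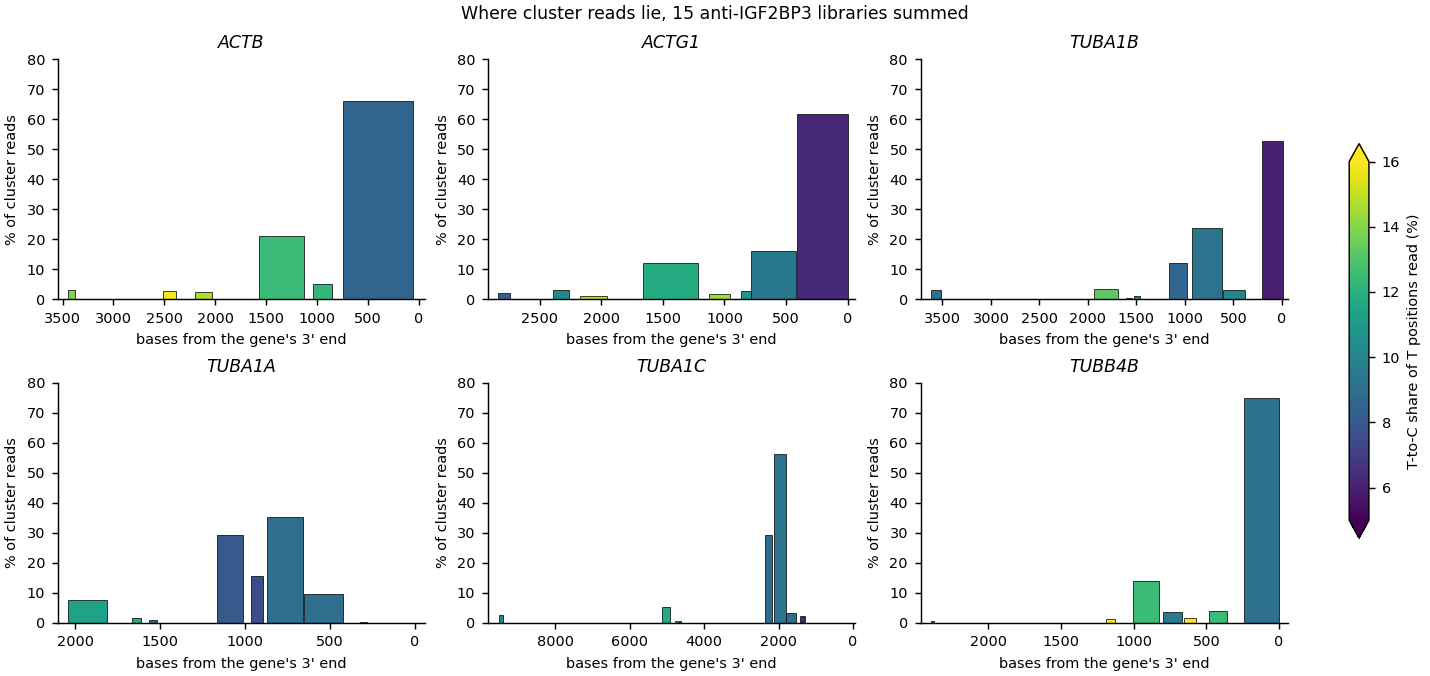
Share of a gene's cluster reads in each merged cluster region, summed over the 15 anti-IGF2BP3 libraries, against the distance in the gene span from its 3' end, with the colour giving the share of T positions read as C. The tallest bar is at the 3' end in ACTB, ACTG1, TUBA1B and TUBB4B, with 52.9% to 74.9% of reads, and upstream in TUBA1A and TUBA1C.

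The conversion share of whole genes was compared in 5 members. In ACTG1 it was 7.31% ± 0.15 in PBS and 8.07% ± 0.23 in arsenite (SD, n = 3), with separate groups. In TUBA1B it was 7.20% ± 0.075 in PBS and 7.61% ± 0.22 in arsenite, and 7.09% ± 0.14 in DMSO and 7.54% ± 0.26 at TM 4 h, again separate. In TUBA1C it was 9.23% ± 0.13 in PBS and 9.68% ± 0.25 in arsenite, also separate. At TM 1 h ACTG1 was separate in the other direction, at 6.78% ± 0.12 against 7.20% ± 0.19 in DMSO. Each of these 5 pairs had an exact permutation p of 0.1, the smallest the design allows, and 0.30 adjusted over 15 tests. In ACTB it was 9.91% ± 1.00 in PBS and 10.0% ± 0.34 in arsenite, which overlap (exact permutation p = 1.0). The share of a whole gene mixes regions of unlike conversion, weighted by their reads. In ACTG1 the 3'-end region, at 6.21%, held on average 65.1% of cluster reads in PBS and 52.0% in arsenite. It held 66.6% in DMSO and 75.4% at TM 1 h. The part of these read shares in the whole-gene values was not tested.

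Regions of the same gene did not all move with the gene. Reads were summed per merged region and fitted over all regions, a step chosen after seeing the data. In arsenite against PBS, region 5 of ACTG1, chr17:81511185-81511630, at least 1214 bases from the 3' end, rose by 0.87 (SE 0.19, edgeR adjusted p = 0.022). Its 3'-end region had a change of -0.062 (SE 0.12, edgeR adjusted p = 0.83). Region 5 of TUBA1B, chr12:49128756-49128942, fell by 0.86 (SE 0.16, edgeR adjusted p = 0.014), while the neighbouring region 6 was at -0.13 and the 3'-end region, which shares no word with other members, at -0.22 (edgeR adjusted p of 0.56 and 0.31). Region 5 of TUBA1C (-0.64) and region 4 of TUBA1A (-0.66) also fell. In ACTB, region 4 (1.17, edgeR adjusted p = 0.032) and the 3'-end region (0.85, 0.018) both rose. Of all regions tested 12.7% passed, 9.91% as higher and 2.78% as lower. Each of these 6 calls held in only 1 or 2 of the 6 fits that left out a library, with a highest edgeR adjusted p from 0.12 (TUBA1B region 5 and the ACTB 3'-end region) to 0.36 (TUBA1A region 4), and the sign held in all of them. At TM 4 h no member region passed, where 0.0716% did, and per gene no member passed on cluster reads in arsenite, where 12% did (ACTB 0.81, edgeR adjusted p = 0.065).

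Shares within a gene show the same reads without library scaling. The 3'-end region held 64.1%, 68.9% and 62.4% of ACTG1 cluster reads in PBS and 52.0%, 51.5% and 52.5% in arsenite. It held 67.0%, 66.3% and 66.7% in DMSO, 83.4%, 74.2% and 68.5% at TM 1 h, and 58.0%, 56.1% and 55.5% at TM 4 h. The share was thus lower than its control in every arsenite and TM 4 h library and higher in every TM 1 h library. Region 5 of ACTG1 ran the opposite way, with 10.8% ± 2.3 in PBS and 17.3% ± 0.79 in arsenite (SD, n = 3). It had 9.49% ± 0.12 with DMSO, 6.56% ± 2.51 after 1 h of tunicamycin and 13.7% ± 0.81 after 4 h (SD, n = 3). The ACTB 3'-end share was 70.8% ± 8.12 in PBS and 60.3% ± 2.04 in arsenite, and 72.8% ± 4.95 in DMSO and 63.2% ± 2.15 at TM 4 h. PBS replicate 2, the library with the fewest clusters, had 80% of only 35 ACTB cluster reads there, and without it the ACTB difference between arsenite and PBS went from -10.6 to -5.99 percentage points. Without TM 1 h replicate 1 the ACTG1 difference between TM 1 h and DMSO went from 8.71 to 4.67 points at the 3' end and from -2.93 to -1.59 points in region 5. In TUBA1B it was 52.5% ± 0.91 in PBS and 54.4% ± 1.97 in arsenite, which overlap. TUBA1B region 5 was 13.5% ± 1.44 in PBS and 8.92% ± 0.34 in arsenite.

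Each separate pair of groups had an exact permutation p of 0.1 (0.17 adjusted over 15 tests), the smallest possible. The number of clusters called differed between the libraries compared, 3579 to 16430 in PBS and 15648 to 45613 in arsenite. At like numbers, ACTG1 had 64.1% at its 3' end in PBS replicate 1 (16430 clusters) and 52.0% in arsenite replicate 1 (15648). In the same libraries ACTB had 64.5% and 62.3% at its 3' end, and TUBA1B had 13.7% and 9.14% in region 5. These are single libraries, and the part of the number of clusters in the shares was not tested. The protocols give more than 1 concentration of RNase without saying which library received which, and its part in these shares was not tested.

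**Figure D4:**
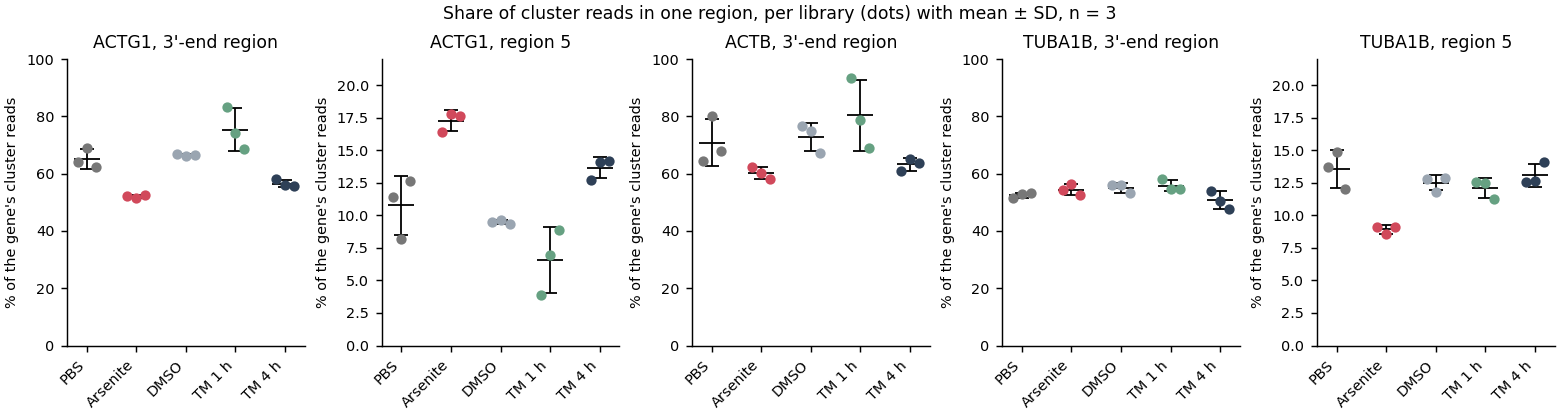
Percent of a gene's cluster reads that fell in the named region, per anti-IGF2BP3 library (dots) with the mean ± SD (n = 3), by condition. The ACTG1 3'-end share lies at 51.5% to 52.5% in arsenite and 62.4% to 68.9% in PBS, and TUBA1B region 5 at 8.53% to 9.14% in arsenite and 12.03% to 14.9% in PBS.

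Other genes of the actin and tubulin systems could be named only through cluster coordinates, so cluster reads were summed per RefSeq gene. Of the 5 other actins 1 had cluster reads, ACTA1 with 92, and of 15 other tubulins 9 had, led by TUBG1 with 1691 and TUBA8 with 834 reads in 15 of 15 libraries. TUBG1 encodes the gamma-tubulin that nucleates microtubules. How far clusters on these genes are shared with the members was not examined. In arsenite, the fit called 3 of 26 actin-binding genes lower and 0 higher, and 1 of 9 folding factors higher. Of 9 genes tested from the SRF list (SRF, its coactivators and targets) it called 1 higher and 1 lower. It called 1 of 6 microtubule-associated genes lower, and 0 of 2 other tubulins. The list genes called higher had no listed cluster in PBS and entered the test only through arsenite. Of all 2682 genes, 8.91% were called higher and 3.13% lower. The list medians were -0.096 for actin-binding genes, 1.25 for folding factors, 1.07 for the SRF list and 0.68 for microtubule-associated genes, beside 0.31 for all genes.

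TPM4, a tropomyosin that lies along actin filaments, is counted in both the actin-binding and the SRF list. It had 177, 33 and 173 cluster reads in PBS and 88, 161 and 320 in arsenite, before scaling by library (log2 change -0.74, SE 0.19, edgeR adjusted p = 0.037). CFL1, the actin-severing protein cofilin, fell by 1.04 (SE 0.29, edgeR adjusted p = 0.046). ARPC5, a subunit of the Arp2/3 complex that branches actin filaments, fell by 1.66 (SE 0.43, 0.037). STMN1, the tubulin-sequestering protein stathmin, fell by 1.04 (SE 0.23, 0.025). CCT8, a subunit of the chaperonin that folds actin and tubulin, and CCN1, a secreted matrix protein and SRF target, are named after seeing their values, as is TPM4. CCT8 and CCN1 had no listed cluster in the 3 PBS libraries, and in arsenite CCT8 had 12, 44 and 85 reads and CCN1 had 29, 54 and 122. They passed the filter on low counts only through arsenite, so their entry into the test was not independent of the change. Each of these 6 calls held in only 1 or 2 of the 6 fits that left out a library. In the tunicamycin comparisons no gene of these lists was called, and 0% of genes at TM 1 h, 0.214% at TM 4 h and 0.299% between both times were. In the difference between stresses CCN1 was the only gene of the lists called (higher), where 3.37% of genes were called and 2.85% as higher. Its log2 difference of 15.2 (SE 3.22) gives no usable size, since CCN1 had no listed cluster in any PBS or TM 4 h library. In DMSO it had 41 reads, all in replicate 3, so the tunicamycin side rests on a single library. CCN1 entered this fit through arsenite as well. These calls rest on clusters and not on the gene counts, and were added after seeing the data.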

How the data were processed

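Per the labels, 15 anti-IGF2BP3 and 5 IgG PAR-CLIP libraries of HCT116 were made. The authors deposited raw counts per gene and cluster lists with read counts and conversion event counts, per the file headers. The submitters' processing notes name bcl2fastq 2.20.0.422, UMI-tools 1.1.1, Trimmomatic 0.30, Bowtie 0.12.7, featureCounts 2.0.1, hg38 and GRCh38.p13, without roles; the cluster caller was not given in the sources used here. All columns matched a library (0 left over).

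The gene counts went into edgeR 4.0.16 under R 4.3.3 (filterByExpr, TMM, quasi-likelihood, Benjamini-Hochberg, threshold 0.05); the IgG fit used library totals. DESeq2 1.42.0 and other settings were alternatives. SE is the change over the square root of F. The fit was tested on simulated data. Clusters of the members were assigned by overlap with the RefSeq span (GRCh38.p14) on its strand. They were merged over libraries into regions, and compared by exact permutation tests (SciPy 1.17.1). For reads per RefSeq gene, a cluster counted only if its midpoint lay in 1 protein-coding span on its strand. Of 412123 clusters in the anti-IGF2BP3 libraries, 7332 lay in several spans and were left out there. The strand of ACTB was taken from its clusters, as was that of other protein-coding genes without a RefSeq promoter window. Intervals and limits cover counting error only. Named genes were the 9 members, at most 3 other listed genes per direction with a mean of at least 50, and genes of like pattern. TPM4, CCT8 and CCN1 fall outside this rule and were chosen after their values were seen. Members and lists were chosen with earlier results of these data known. The gene lists were not run on counts, since no table at hand pairs the identifiers with symbols. Same-numbered libraries did not deviate together (correlations of -0.042 to 0.015). The region shares, count ratios, element search and all fits on cluster reads were added after seeing the data.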

Additional observations from a re-analysis of the deposited data

Results flagged for a closer look

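The change in arsenite against PBS differed from the change in TM 4 h against DMSO in 5 members, by the test of the difference itself (edgeR). The difference, arsenite minus TM 4 h on the log2 scale, was 0.51 in ACTB, -0.71 in TUBA1A, -0.63 in TUBA1B, -0.80 in TUBA1C and 1.5 in TUBB2A. The alpha-tubulins share sequence, so these are not 5 independent readings, and library set and stress cannot be told apart. No group held the 4 to 10 libraries that a test for a single outlying library needs.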

How the results depend on the processing

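Of 795 recomputed values, 717 were counted as the same, 23 lost and 12 gained a call, 13 moved and 30 changed sign. For the change of a gene, the same meant the same direction and side of the threshold. For conversion shares it meant the same direction only. Numbers of members counted as the same within a fixed ratio, such as 3 and 2 calls at TM 4 h. The members' share counted as the same within the SD of PBS. All 30 sign changes were of values that had passed no test, the ACTG1 difference to IgG (0.34 under TMM) among them. The number of members called stayed at 5 to 6 for arsenite and for the difference between stresses when each library was left out. It ranged from 1 to 3 for TM 4 h against DMSO, from 0 to 2 for TM 4 h against TM 1 h and was 0 for TM 1 h. It was 1 for TM 1 h within replicates 1 and 2, and for TM 4 h against TM 1 h it was 0 in DESeq2, 2 with robust variance and 2 with the library set as a covariate. For IgG it was 3 under TMM, which counted as the same as the 2 of the main fit although the genes called were different. It was 1 without the filter and 0 without the arsenite-set IgG libraries. The members' share differed between arsenite and PBS by -0.11 percentage points and with TMM factors by -0.10. With the replicate number as a block the calls were 0, 3, 1, 6 and 5 for TM 1 h, TM 4 h, TM 4 h against TM 1 h, arsenite and the difference, and no call changed; TUBB4B at TM 1 h turned to -0.0058 (0.0077 without the block). For TM 1 h, TUBB4B was also -0.011 without the filter, -5.1e-05 at a mean of at least 50, -0.010 in DESeq2, -0.097 within replicates 1 and 2 and -0.0043 with the set; leaving out a library gave -0.097 to 0.053, and -0.041 to 0.071 for ACTB. For TM 4 h, TUBB4B was 0.0063 at a mean of at least 50, TUBB6 0.0019 in DESeq2 and 0.22 within replicates 1 and 2; leaving out a library gave -0.091 to 0.058 for TUBB4B, -0.11 to 0.095 for TUBB6 and -0.010 to 0.083 for ACTG1. From TM 1 h to TM 4 h, TUBB4B was 0.0064 at a mean of at least 50 and 0.0083 within replicates 1 and 2, where TUBB2A was -0.073; leaving out a library gave -0.099 to 0.071 for TUBB4B, -0.12 to 0.24 for TUBB2A and -0.025 to 0.13 for TUBA1B. The ACTB conversion share differed by -0.48 to 0.45 percentage points for arsenite and -0.34 to 0.94 for TM 4 h when a library was left out. The causes were not tested. Depth limits members with few counts.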
